A study of Mus musculus with 26 samples.

Results

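Tagln, Actg2 and Cnn1, smooth muscle genes used as marks of contractile cells in exocrine glands, were followed across 5 glands of BALB/c mice of both sexes. These 3 genes, of 8841 with a symbol of their own on the array, were chosen by symbol alone, and 3 of the 10500 probes carried them, 1 probe each. The arrays numbered 26, and each held RNA from the glands of 5 animals (10 glands) pooled. Male submandibular and female submandibular glands had 3 pools each, as had male lacrimal and female lacrimal glands, and male meibomian and female meibomian glands. Male sublingual and female sublingual glands had 2 pools each, as had male parotid and female parotid glands. No treatment or mutant allele was named for any group, and age was not given in the sources used here. A pool is 1 replicate, so the spread between pools is smaller than that between single animals, and its size among animals was not measured.

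Myoepithelial cells are contractile epithelial cells that wrap the secretory end pieces of salivary and lacrimal glands and squeeze them when nerves or hormones signal. They build the contractile apparatus of smooth muscle. Tagln encodes transgelin (SM22alpha), which binds and bundles actin filaments. Actg2 encodes smooth muscle gamma actin, the actin of gut and bladder muscle. Cnn1 encodes calponin 1, which binds actin and slows the ATPase of smooth muscle myosin. Vascular smooth muscle and pericytes make much of the same apparatus, and the meibomian gland, a sebaceous gland of the eyelid, lies beside eyelid muscle. In whole-gland RNA, fewer cells of a type and less RNA per cell cannot be told apart.

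Serum response factor drives many smooth muscle genes through an element called the CArG box, so the promoter of the member with a reference sequence is shown. RefSeq (GRCm38.p6) gave 300 bases for Cnn1, at chr9:22099003-22099302 on the plus strand, with 250 bases before and 50 after the start of transcription. Capitals mark CCAAT.
Cnn1: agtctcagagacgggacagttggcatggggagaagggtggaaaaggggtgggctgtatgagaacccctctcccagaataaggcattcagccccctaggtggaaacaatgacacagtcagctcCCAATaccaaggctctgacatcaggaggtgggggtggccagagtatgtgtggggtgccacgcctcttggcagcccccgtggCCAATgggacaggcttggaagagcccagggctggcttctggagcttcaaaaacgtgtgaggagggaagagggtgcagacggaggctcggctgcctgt
CCAAT occurred 2 times, starting 128 and 47 bases before the start of transcription, and 37.4% of 32851 RefSeq promoter windows of the same length held it. The CArG box occurred 0 times, against 1.63% of all windows, and TATAAA occurred 0 times, against 13.6% of all windows. All 3 motifs were searched on both strands, and they do not overlap. Elements outside this window were not searched. Tagln and Actg2 are named only.

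The deposited values were probe intensities already scaled within each array, with medians of the measured spots between 0.928 and 0.955, and they are called scaled intensities here. A scaled intensity has no unit that can be set against another probe's, so levels are compared between glands and sexes for 1 probe at a time. All 3 members passed the filter on dim probes, which kept 8191 probes. For Cnn1 in female sublingual pool A the deposited table held -1, read here as a code for a missing spot. Cnn1 was measured on the other 25 arrays. Actg2 was dim, with all pools of the group under the 30th percentile of their arrays, in female submandibular, male parotid and female parotid glands. Against these groups only a lower bound of a fold can be given, and a fitted difference of Actg2 that uses them rests on dim readings. Such differences were therefore fitted again with the dim groups raised to the 30th percentile of their arrays, an alternative chosen after seeing the data.

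The members' clearest sex difference was in the submandibular gland, where all 3 were higher in males. Tagln had scaled intensities of 17.6, 13.6 and 13.1 in male submandibular pools A, B and C, against 5.39, 3.88 and 3.93 in female submandibular pools A, B and C. The lowest male pool lay well above the highest female pool. The male minus female difference was 1.75 ± 0.27 on the log2 scale (SE, n = 3 pools each), a 3.36-fold difference, with an adjusted p of 0.000433 in limma. Pool by pool it was 1.71, 1.80 and 1.74 for the letters A, B and C, so the 3 pairs of pools gave nearly the same value.

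Actg2 had scaled intensities of 0.969, 0.523 and 0.670 in male submandibular pools A, B and C, against 0.106, 0.206 and 0.145 in female submandibular pools A, B and C. All 3 female pools were dim, and no male pool was as low as any of them. Male intensity was therefore at least 2.08-fold higher, and the fitted log2 difference was 2.25 ± 0.41 (SE, adjusted p = 0.00203 in limma). With the dim female pools raised to the 30th percentile it was 1.05 and did not pass (adjusted p = 0.154 in limma).

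Cnn1 had scaled intensities of 108, 51.3 and 80.0 in male submandibular pools A, B and C, against 24.4, 16.7 and 38.4 in female submandibular pools A, B and C. The groups did not overlap, although male pool B and female pool C came near each other. The difference was 1.61 ± 0.42 on the log2 scale (SE), with an adjusted p of 0.0477 in limma, just inside the threshold of 0.05. Fitted on the submandibular arrays alone, the same difference had an adjusted p of 0.111, and with 1 array left out in turn it ran from 0.0269 to 0.257. It missed the threshold in 12 of these 26 fits, among them those without male pool A or C or female pool A or B, with adjusted p from 0.136 to 0.257. The other 8 left out an array of another gland (5 meibomian, 2 parotid, 1 lacrimal), with adjusted p up to 0.0648.

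Of all probes tested, 2.61% passed in the submandibular sex comparison, and 1.94% passed as higher in males. In 7.92% of the probes measured in all submandibular pools, every male pool lay above every female pool, as in all 3 members. The arrays fell into 4 sets by which spots were missing on them, and each set held both sexes equally. In set 1, which held submandibular pools A and B, the male minus female differences were 1.76 for Tagln, 2.27 for Actg2 and 1.88 for Cnn1. In set 2, which held pool C, they were 1.74, 2.21 and 1.06 in the same order. Both values of Actg2 rest on dim female pools. The same direction within both sets was already fixed by the lack of overlap between the sexes, so it adds no support of its own.

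**Figure D1:**
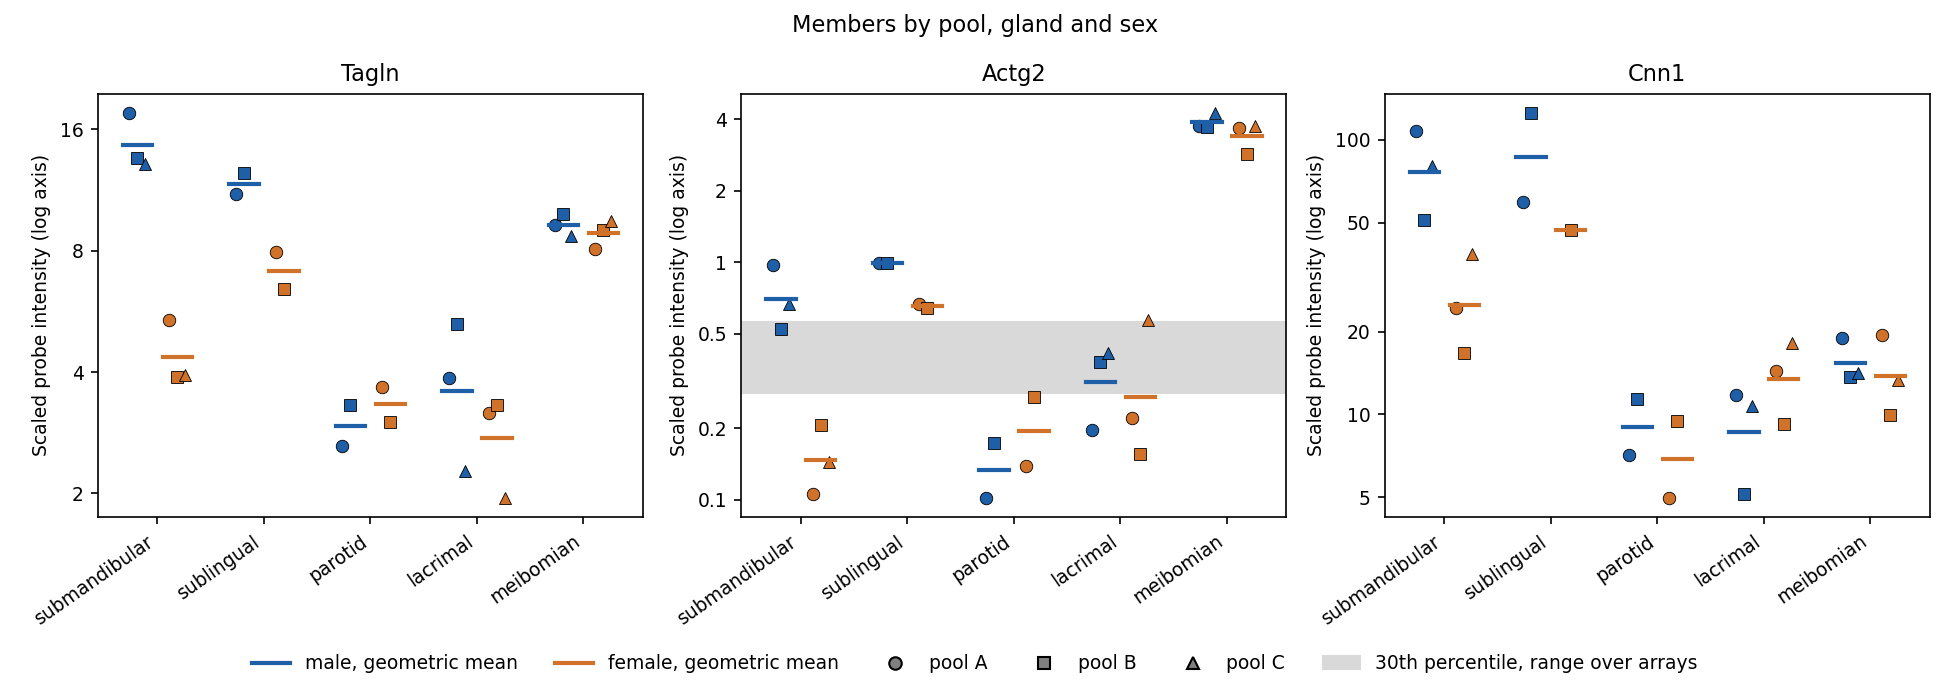
Scaled probe intensity of Tagln, Actg2 and Cnn1 on log axes, 1 point per pool, for male (left) and female (right) pools of each gland, with bars at the geometric mean. In submandibular glands the 3 male pools of each member lie above the 3 female pools, and the grey band shows the 30th percentile (0.281 to 0.561 over the arrays) below which Actg2 was dim.

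In the sublingual gland, a small salivary gland that lies against the submandibular gland, no member passed the sex test, and 0.208% of all probes did. Tagln had scaled intensities of 11.0 and 12.4 in male sublingual pools, against 7.95 and 6.41 in female sublingual pools (log2 difference 0.72 ± 0.33, SE). Actg2 had 0.988 and 0.990 in male pools, against 0.668 and 0.639 in female pools (0.60 ± 0.50). For both, the male pools lay above the female pools, as did 14.9% of all probes measured in the 4 sublingual pools. Cnn1 had 59.3 and 125 in male pools, against 47.1 in the only measured female pool (0.87 ± 0.64). The adjusted p in limma rounded to 1 for each.

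The other 3 glands showed no called sex difference of a member either. In the parotid gland, a serous salivary gland in which 0.0244% of all probes passed, Tagln had 2.62 and 3.31 in male pools, against 3.68 and 3.01 in female pools. Actg2 had 0.102 and 0.174 in male parotid pools, against 0.138 and 0.271 in female parotid pools, all dim. Cnn1 had 7.13 and 11.4 in male parotid pools, against 4.96 and 9.48 in female parotid pools. Male and female parotid pools overlapped for each member.

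In the lacrimal gland, the tear gland, 5.43% of all probes passed the sex test, and no member was among them. Tagln had scaled intensities of 3.86, 5.27 and 2.28 in male lacrimal pools A, B and C, against 3.17, 3.32 and 1.95 in female pools A, B and C. Actg2 had 0.197, 0.381 and 0.413 in male lacrimal pools, against 0.221, 0.155 and 0.571 in female lacrimal pools. The 30th percentile was 0.561 in male pool C and 0.512 in female pool C, against 0.351 to 0.384 in the other 4 lacrimal pools, and its part in these low readings was not tested. Cnn1 had 11.7, 5.13 and 10.7 in male lacrimal pools, against 14.4, 9.21 and 18.2 in female lacrimal pools. The sexes overlapped in each case, though Cnn1 was lower in the male pool of every letter, by 0.30, 0.84 and 0.76 on the log2 scale for A, B and C. Its log2 difference was -0.63 ± 0.42 (SE, adjusted p = 0.580 in limma).

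In the meibomian gland, where 0.0366% of all probes passed, the sexes were close. Tagln had 9.28, 9.85 and 8.69 in male meibomian pools A, B and C, against 8.09, 9.02 and 9.48 in female pools A, B and C. Actg2 had 3.76, 3.72 and 4.27 in male meibomian pools, against 3.67, 2.87 and 3.75 in female meibomian pools. Cnn1 had 18.9, 13.6 and 14.1 in male meibomian pools, against 19.4, 9.98 and 13.4 in female meibomian pools. The log2 differences were 0.07 ± 0.27 for Tagln, 0.20 ± 0.41 for Actg2 and 0.16 ± 0.42 for Cnn1 (SE), none called.

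**Figure D2:**
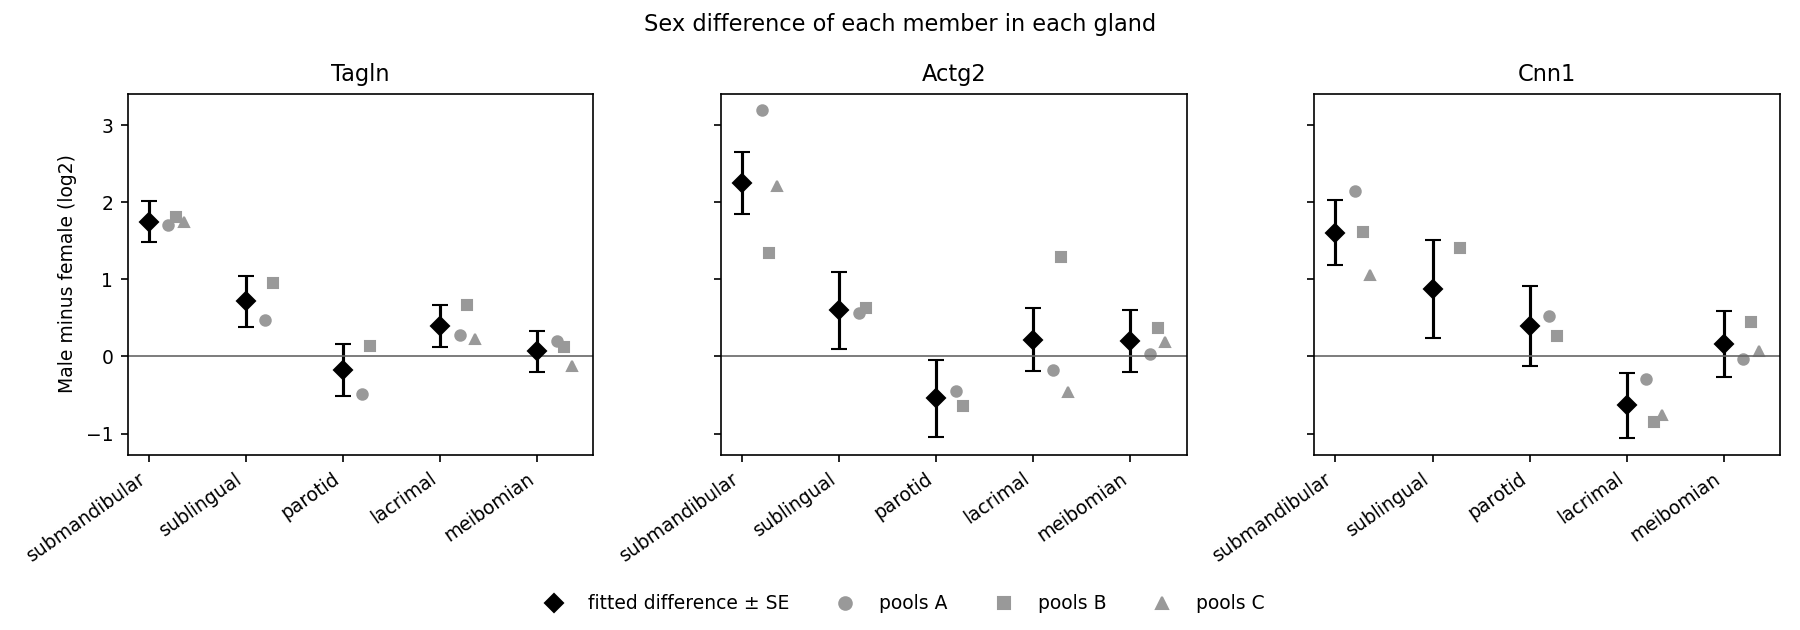
Male minus female difference (log2) of each member in each gland, with the fitted value ± SE as a black diamond and the difference of pools of the same letter in grey. The submandibular values (1.75 for Tagln, 2.25 for Actg2 and 1.61 for Cnn1) stand above those of the other glands, that of Actg2 resting on dim female pools, and Cnn1 in the lacrimal gland lies below 0 for all 3 letters.

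Whether the submandibular sex difference differed from that of the other 4 glands was tested directly. For Tagln it exceeded their mean by 1.50 ± 0.31 on the log2 scale (SE, adjusted p = 0.0146 in limma), and for Actg2 by 2.13 ± 0.47 (SE, adjusted p = 0.0210 in limma). In this comparison 1.39% of all probes passed. With 1 array left out, Tagln missed the threshold in 3 of 26 fits, those without submandibular male pool A, female pool B or female pool C (highest adjusted p 0.0852). Actg2 missed it in 4 of 26 fits, those without submandibular male pool A or C or female pool A or C (highest adjusted p 0.115). The fitted excess of Actg2 rests on dim female pools, and with dim groups raised to the 30th percentile it was 0.79 and did not pass (adjusted p = 0.702 in limma). For Cnn1 the excess of 1.41 ± 0.49 did not pass (SE, adjusted p = 0.282 in limma). With pools of the same letter paired as a replicate block it was 1.27 and passed (adjusted p = 0.0189).

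The F test over all 5 glands asked the same without singling out a gland, and 2.66% of all probes passed it. Tagln passed (adjusted p = 0.0412 in limma), but missed the threshold in 20 of 26 fits that left out 1 array, with adjusted p up to 0.156. It passed without male lacrimal pool B or C, female lacrimal pool B or C, female sublingual pool A or female submandibular pool A. Actg2 (0.0805) and Cnn1 (0.343) did not pass, but both did with the replicate block (adjusted p = 0.0375 and 0.00630). In the blocked fit the lacrimal sex difference of Cnn1 also lay below the mean of the other glands, by -1.53 (adjusted p = 0.00301), against -1.39 (adjusted p = 0.166) without the block.

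Averaged over the 5 glands, 1.28% of all probes passed the sex test. Of the members Tagln passed, at 0.55 ± 0.13 on the log2 scale (SE, adjusted p = 0.0408 in limma), and missed the threshold in 20 of 26 fits that left out 1 array (adjusted p up to 0.120). It passed without male lacrimal pool B or C, female lacrimal pool A or B, male submandibular pool C or female submandibular pool A. The mean of Tagln leans on the submandibular gland (1.75), against 0.72 in sublingual, 0.39 in lacrimal, 0.07 in meibomian and -0.18 in parotid glands. It does not show a male excess in every gland. Actg2 (0.54 ± 0.20, adjusted p = 0.312) and Cnn1 (0.48 ± 0.22, adjusted p = 0.579) did not pass. With the replicate block Cnn1 passed, at 0.59 (adjusted p = 0.0172).

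Of 7 tested genes for other actins and calponins, relatives of the members, 2 were called in the submandibular gland, both higher in males, where 1.94% of all probes were. Their median difference was 0.197, against -0.0854 over all probes. Acta2, the vascular smooth muscle alpha actin that myoepithelial cells also make, had scaled intensities of 81.1, 32.7 and 31.4 in male submandibular pools A, B and C, against 18.2, 9.96 and 15.1 in female submandibular pools A, B and C. The groups did not overlap, and the log2 difference was 1.64 ± 0.40 (SE, adjusted p = 0.0270 in limma). Acta1, the skeletal muscle actin, differed by 3.35 ± 0.74 (SE, adjusted p = 0.0122). The cytoplasmic actins Actb (0.48) and Actg1 (0.20), the cardiac actin Actc1 (-0.40) and the calponins Cnn2 (-0.08) and Cnn3 (-0.27) were not called. Actin genes share much of their coding sequence, and which transcripts each probe reads was not tested.

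Among 20 tested smooth muscle contractile genes, 4 rose in male submandibular glands and none fell, with 1.94% of all probes called higher in males. Their median log2 difference was 0.721, against -0.0854 over all probes. Those that rose were Acta2, Kcnmb1 (1.49 ± 0.33, SE), a subunit of the calcium-activated potassium channel of smooth muscle, Fhl1 (1.28 ± 0.28), a LIM protein of muscle, and Csrp1 (1.06 ± 0.27), a LIM protein that binds the cytoskeleton. Their adjusted p lay between 0.0105 and 0.0366 in limma. Myh11, the smooth muscle myosin heavy chain, differed by 1.08 ± 0.35 (SE, adjusted p = 0.141) and desmin, Des, by 1.61 ± 0.56 (SE, adjusted p = 0.185). Des was dim in female submandibular glands, so its fitted value rests on dim readings, and the bound was at least 1.02-fold. None of 13 regulators of smooth muscle genes was called (median -0.146), nor was any of 6 receptors that contract myoepithelial cells (median -0.104). With 2.61% of all probes called in either direction, lists this short can hold none. Of the contractile genes and relatives, none passed the test of the submandibular sex difference against the mean of the other 4 glands. Genes of other lists did pass it, as higher: the skeletal muscle genes Pvalb and Mylpf, the fibroblast gene Postn, and Egf, Klk1b24 and Smr2 of the granular ducts.

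Of the markers of other epithelial, vascular and connective tissue cells, 1 was called in the same comparison. Of all probes 2.61% were called there, so this low count does not set these cells apart from all probes. None of 14 myoepithelial and basal epithelial genes was called (median 0.0649). Of the myoepithelial markers measured, Trp63 averaged 0.802 in male submandibular glands and 1.01 in female submandibular glands, and Krt17 0.505 in males and 0.276 in females, where it was dim. Krt5, Krt14 and Oxtr were not analysed here, so besides Acta2 the name myoepithelial rests on few markers. None of 8 mural and 9 endothelial genes was called (medians 0.203 and -0.0399), and of 12 fibroblast and collagen genes Postn alone rose (1.32 ± 0.24, SE).

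Skeletal muscle genes moved with the members in the submandibular gland. Of 17 tested, 8 rose in males and none fell (median 1.63), against 1.94% of all probes called higher in males (median over all probes -0.0854). They were led by Mylpf (2.69 ± 0.41, SE), Pvalb (4.39 ± 0.75) and Tnnt3 (3.31 ± 0.70), which act in fast muscle fibres. Their summed scaled intensity was 25.9 to 32.3 in male submandibular pools, against 4.82 to 7.07 in female submandibular pools. Pvalb averaged 3.40 in males and was dim in females, as was Tnnt3, so their fitted values rest on dim readings. The bounds were at least 10.1-fold for Pvalb and at least 7.49-fold for Tnnt3. Of 5 granular duct genes, products of the androgen-responsive ducts of the mouse submandibular gland, Egf, Klk1b24 and Smr2 rose in males, and the sums were 653 to 864 in male pools, against 369 to 492 in female pools. The part of these cells in the members' difference was not tested. In the parotid gland the skeletal muscle sum was 262 to 364 in male pools and 81.5 to 364 in female pools, above every submandibular pool.

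The members also differed between the glands. Tagln averaged, over both sexes, highest in sublingual, meibomian and submandibular glands and lowest in parotid and lacrimal glands. Actg2 stood highest in meibomian glands, and Cnn1 in sublingual and submandibular glands. A gland difference was called where the adjusted p lay under 0.05 and the log2 difference reached 1.

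For Tagln, the parotid gland lay 1.11 below the mean of the other 4 glands and the lacrimal gland likewise, with log2 differences of -1.11 ± 0.18 and -1.11 ± 0.16 (SE, adjusted p = 6.05e-05 and 6.75e-06 in limma). These were the called values. The submandibular (0.58 ± 0.16), sublingual (0.83 ± 0.18) and meibomian (0.81 ± 0.16) glands had adjusted p of 0.00717, 0.00201 and 0.000122 but did not reach a log2 difference of 1. Their order is not settled, since the pairwise differences among these 3 glands were -0.20, -0.18 and 0.02. Nor did parotid and lacrimal glands differ beyond their spread (0.00 ± 0.21, adjusted p = 0.995).

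For Actg2, the meibomian gland lay above the mean of the other 4 by 3.46 ± 0.23 on the log2 scale (SE, adjusted p = 6.08e-11 in limma). Every meibomian pool, at 2.87 to 4.27, lay above every pool of the other glands, the highest of which was 0.990. Male meibomian glands had at least 11.1-fold the intensity of male parotid glands, and female meibomian glands at least 10.1-fold that of female submandibular glands. The parotid gland was lower than the mean of the others by a fitted -2.17 ± 0.27 and the lacrimal gland by -1.10 ± 0.23 (SE, adjusted p = 2.20e-06 and 0.000596), values that rest partly on dim readings. With dim groups raised to the 30th percentile they were -1.20 and -1.53, both called, and the meibomian value was 3.03. No lacrimal group was dim as a whole, so lacrimal pools were not raised. Yet male lacrimal pools A and C and female lacrimal pools A and B lay under that percentile. Raising the other groups can only lower the lacrimal value, so it does not test the lacrimal call. The submandibular (-0.93 ± 0.23, adjusted p = 0.00444) and sublingual (0.74 ± 0.27, adjusted p = 0.0586) glands were not called.

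For Cnn1, the sublingual gland lay above the mean of the other 4 by 2.07 ± 0.34 and the submandibular gland by 1.38 ± 0.25 on the log2 scale (SE, adjusted p = 0.000138 and 0.000239 in limma). The parotid gland lay below by -1.71 ± 0.29 and the lacrimal gland by -1.14 ± 0.25 (SE, adjusted p = 9.65e-05 and 0.000818). The meibomian gland, where Actg2 was highest, was not called for Cnn1 (-0.60 ± 0.25, adjusted p = 0.0387). Sublingual and submandibular glands did not differ beyond their spread (submandibular minus sublingual -0.55 ± 0.38), nor did lacrimal and parotid glands (parotid minus lacrimal -0.46 ± 0.34). With the missing female sublingual spot read as the floor of 0.0234 in place of being left out, the sublingual value turned to -0.68.

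Over all probes, the share called against the mean of the other 4 was 12.3% for the submandibular gland, where 1 of 3 members was called. It was 11.2% for the sublingual gland, with 1 of 3 members, and 17.1% for the parotid gland, with 3 of 3. It was 20.2% for the lacrimal gland, with 3 of 3, and 37.9% for the meibomian gland, with 1 of 3. The parotid and lacrimal glands were thus those in which every member was called, each time as lower. Leaving out 1 lacrimal array brought these lacrimal values under the size limit. Without male or female pool C, Tagln was at -0.94 or -0.98. Without male pool A or female pool B, Actg2 was at -0.93 or -0.90, and without male pool B, Cnn1 was at -0.95.

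**Figure D3:**
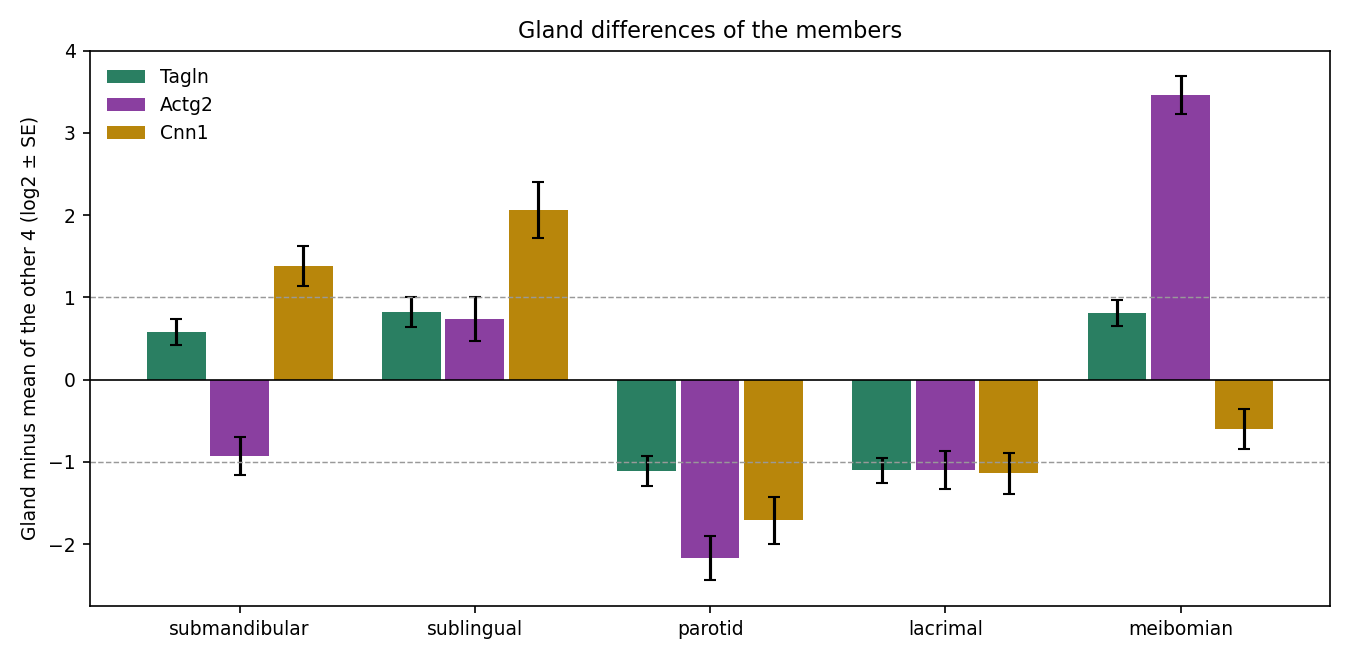
Difference of each gland from the mean of the other 4 glands (log2, bars, with SE) for Tagln, Actg2 and Cnn1, with dashed lines at a log2 difference of 1 in either direction. All 3 members lie below 0 in parotid and lacrimal glands, while the meibomian gland has Actg2 at 3.46 and Cnn1 at -0.60.

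The 10 pairs of glands ordered the members further. All 3 members were higher in the sublingual gland than in the parotid gland, by 1.55 for Tagln, 2.33 for Actg2 and 3.02 for Cnn1 on the log2 scale, and 13.8% of all probes were called. The Actg2 value is read against dim parotid groups, and the bounds were at least 2.82-fold in males and at least 1.90-fold in females, with 1.21 for both sexes once dim groups were raised to the 30th percentile. All 3 were also higher in the sublingual than in the lacrimal gland, by 1.55, 1.47 and 2.56, with 23.1% of all probes called. That Actg2 value rests partly on lacrimal pools under the 30th percentile, which were not raised. In the submandibular gland 2 of 3 were higher than in the parotid gland, Tagln by 1.35 and Cnn1 by 2.47, with 16.8% of all probes called. Actg2, at 0.996 (adjusted p = 0.0256 in limma), lay just under the size limit there, and it was 0.48 with dim groups raised to the 30th percentile. The submandibular gland exceeded the lacrimal gland in the same 2, by 1.35 and 2.02, with 19.4% of all probes called.

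Between the submandibular and sublingual glands 1 of 3 members was called, Actg2, lower in the submandibular gland by -1.33 (adjusted p = 0.00596 in limma), with 10.4% of all probes called. With pools of the same letter as a random replicate block its adjusted p was 0.0828. With the dim female submandibular pools raised to the 30th percentile the value was -0.73 and was not called (adjusted p = 0.0875 in limma). Between parotid and lacrimal glands none of the 3 was called, although 26.1% of all probes were. Actg2, at -0.86 for parotid minus lacrimal (adjusted p = 0.0370 in limma), missed the size limit only. That value rests on dim readings, and it was 0.26, not called, with the dim parotid groups raised to the 30th percentile and lacrimal pools not raised.

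The pairs with the meibomian gland split the members. The Actg2 values in its pairs with submandibular and parotid glands rest on dim readings, and were -2.91 and -3.39, still called, with dim groups raised to the 30th percentile. Actg2 was lower in the submandibular gland by -3.51 and Cnn1 higher by 1.59, with 36.6% of all probes called. It was the same in the sublingual gland, at -2.18 for Actg2 and 2.13 for Cnn1, with 34.8% of all probes called. In the parotid gland Tagln (-1.53) and Actg2 (-4.51) were lower and Cnn1 was not called (-0.89), with 40.1% of all probes called. In the lacrimal gland Tagln (-1.53) and Actg2 (-3.65) were lower and Cnn1 was not called (-0.43), with 40.8% of all probes called. The lacrimal value of Actg2 rests partly on pools under the 30th percentile, which were not raised. Meibomian pools lay mostly on array sets of their own. With array set as a term, an alternative chosen after seeing the data, Cnn1 differed from the meibomian gland by 0.31 in the submandibular and 0.62 in the sublingual gland, neither called. Parotid and lacrimal glands were then called as lower, by -2.26 and -1.48.

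Whether 2 members changed by unequal amounts between 2 glands was tested on the difference of their log2 intensities in each array, by exact two-sided permutation tests. Of the 30 tests, 15 had an adjusted p under 0.05. Between submandibular and meibomian glands, Actg2 differed from Cnn1 by -5.10 on the log2 scale and Tagln from Actg2 by 3.33 (6 pools each, exact permutation p = 0.00216, the smallest the design allows, adjusted p = 0.0108). Between lacrimal and meibomian glands the same 2 values were -3.21 and 2.12 (exact permutation, adjusted p = 0.0108). Both rest partly on lacrimal Actg2 readings under the 30th percentile. Between parotid and lacrimal glands the 3 pairs of members gave 0.86, 0.45 and -0.40, none of them called (exact permutation, adjusted p between 0.268 and 0.512). Each p there misses the threshold in 4 against 6 pools, which does not show equal change.

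These tests take the pools of a gland as independent, although pools of the same letter deviated together. With the male and female pool of a letter averaged to 1 unit, an alternative chosen after seeing the data, the smallest p the design allows was 0.100 for 3 against 3 letters (exact permutation), and none of the 30 tests could pass or did. With dim groups raised to the 30th percentile, Actg2 still differed from Cnn1 and Tagln from Actg2 between submandibular and meibomian glands.

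Acta2 followed Tagln more closely than the other members did across the glands. It averaged 43.7 in male and 14.0 in female submandibular glands, 29.2 in male and 22.5 in female sublingual glands, and 20.8 in male and 21.1 in female meibomian glands. It was low in parotid glands, at 3.95 in males and 4.42 in females, and in lacrimal glands, at 7.20 in males and 8.41 in females. Against the mean of the other 4 glands it was called higher in submandibular (1.10 ± 0.23, SE) and sublingual glands (1.17 ± 0.27) and lower in parotid glands (-2.10 ± 0.27). Myh11 was called lower in parotid (-1.91 ± 0.23) and lacrimal glands (-1.35 ± 0.20) and higher in meibomian glands (1.54 ± 0.20).

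Other relatives were called in some glands only. Actc1 was higher in parotid glands (3.96 ± 0.25, SE) and lower in submandibular (-1.19), lacrimal (-1.12) and meibomian glands (-2.02). Acta1 was higher in parotid (4.73) and meibomian glands (4.57) and lower in submandibular (-1.38), sublingual (-4.07) and lacrimal glands (-3.84). It was dim in male sublingual and female lacrimal glands, so these values rest partly on dim readings. Actg1 was higher in meibomian (1.54) and lower in parotid glands (-1.28), and Cnn3 was higher in lacrimal glands (1.16). Actb and Cnn2 were called in none of the 5.

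Of all probes, 17% were called higher in the meibomian gland and 20.9% lower, 37.9% in either direction. There 11 of 20 contractile genes were called higher and 1 lower (median 1.17, against -0.0861 over all probes). Fhl1 (4.26 ± 0.16, SE), the small heat shock protein gene Hspb1 (3.48 ± 0.19), Tpm1 (3.04 ± 0.34), a tropomyosin, and Des (2.91 ± 0.32) led by p, and Tpm2 was the one that was lower. In the same comparison all 17 skeletal muscle genes were higher, with sums of 285 to 415 in male and 297 to 515 in female meibomian pools. Of the basal epithelial genes 7 of 14 were higher, among them Krt17 (6.39 ± 0.34) and Trp63 (4.26 ± 0.18), and of the fibroblast genes 10 of 12. The values of Fhl1, Des and Krt17 rest partly on dim groups of other glands. The part of each of these cell types in the Actg2 value was not tested.

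In parotid glands, where every member was low, 8.95% of all probes were called higher and 8.13% lower. There 5 of 20 contractile genes were called higher and 5 lower (median -0.343, against -0.128 over all probes). Those lower included Myh11, Acta2 and Smtn, a smooth muscle cytoskeletal protein, and those higher included Fhl1 (2.01 ± 0.18, SE) and Tpm2 (2.84 ± 0.30). Of the 17 skeletal muscle genes 15 were higher there. In lacrimal glands 5 of 20 contractile genes were lower and none higher (median -0.473, against 0.123 over all probes), led by Fhl1 (-1.72 ± 0.16) and Hspb1 (-1.77 ± 0.19). Of the skeletal muscle genes 13 were lower there, and of all probes 8.58% were called lower and 11.6% higher.

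In sublingual glands Acta2 was the 1 contractile gene of 20 called higher, and 7 were lower, with 16 of 17 skeletal muscle genes lower. Of all probes, 5.9% were called higher and 5.26% lower there. In submandibular glands Acta2 and Csrp2 were higher and Des, Fhl1 and Tpm1 lower, with 15 of 17 skeletal muscle genes lower. In that comparison 5.68% of all probes were called higher and 6.61% lower. The contractile genes called, 2 higher and 3 lower of 20, lay above these shares but are too few to be set apart from them. Summed granular duct genes reached 315 to 353 in male sublingual pools and 202 to 299 in female sublingual pools. In parotid pools they reached 164 to 368 in males and 193 to 302 in females, so such sums are not particular to the sublingual gland. Egf and Klk1b24 passed the sublingual sex test, which 0.208% of all probes passed. How much submandibular tissue the sublingual pools held was not tested.

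**Figure D4:**
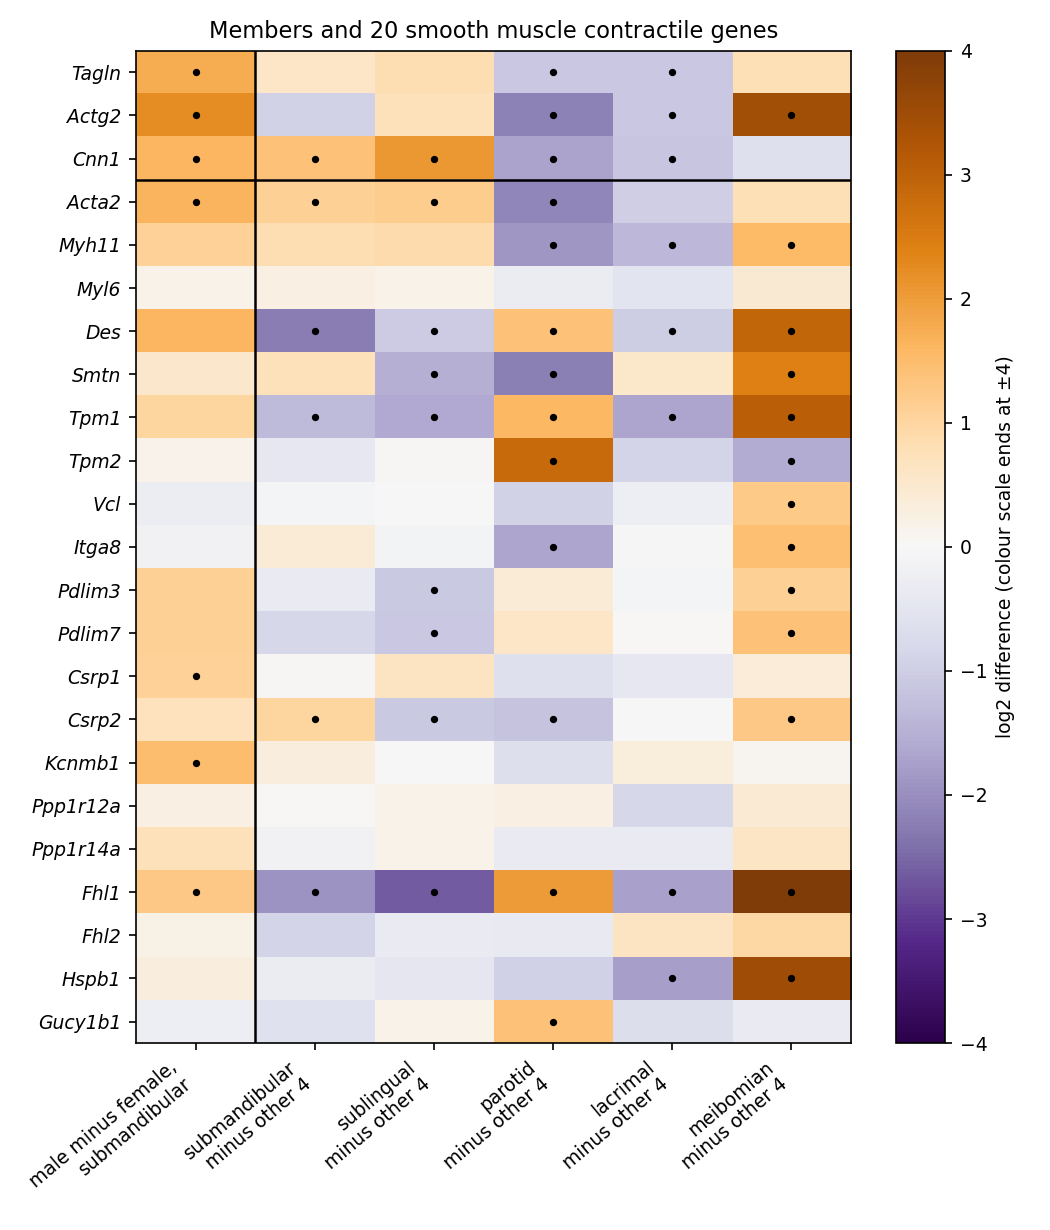
Log2 differences (colour, ending at ±4) of the 3 members, above the line, and 20 smooth muscle contractile genes, below it, for male minus female submandibular glands and for each gland minus the mean of the other 4. Dots mark called differences, which for the sexes number 3 of 3 members and 4 of 20 contractile genes.

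Across all arrays, which share groups, glands and scaling, the members were alike to unequal degrees. Pearson's r of log2 intensities was 0.66 between Tagln and Actg2 (26 arrays), 0.64 between Tagln and Cnn1 and 0.21 between Actg2 and Cnn1 (25 arrays each). Without the meibomian arrays r was 0.66, 0.81 and 0.70 for the same pairs. After the 10 group means were subtracted, r was -0.41, -0.29 and 0.35 for the same pairs. The likeness of Tagln to the other members thus lay between groups and not among pools of a group.

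The genes most like Tagln over 26 arrays were Sgk1 (r = 0.94), a kinase induced by serum and glucocorticoids, Acta2 (0.89), Pspc1 (0.86), Car13 (0.85) and Ctps2 (0.84). After the group means were subtracted, Sgk1 kept r = 0.70 and Acta2 0.56. For Actg2 they were Zdhhc13 (0.94), Snai2 (0.93), a transcription factor of basal epithelial cells, Cpe (0.92), Abcg1 (0.92), a sterol transporter, and Map2k1 (0.92), with 0.72 for Map2k1 after subtraction. For Cnn1 they were Stx7 (0.82), Carhsp1 (0.82), Aldh1a7 (0.81), Stx3 (0.81) and Tlr1 (0.81) over 25 arrays. Without the meibomian arrays, the 5 genes named for Actg2 had r between 0.71 and 0.78.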

How the data were processed

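The deposited table held 1 intensity per probe and array, with values already scaled within arrays. What the authors did to make these intensities, and with which array platform, labelling and scanner, was not given in the sources used here. Cells with the code -1 (2241 cells, 0.821%) were left out as missing spots. That reading was taken from the values, and the sources used here do not state it. Values under the 1st percentile of the positive values (0.0234) were raised to it, and log2 was taken. Array medians spanned 0.0403 on the log2 scale, so arrays were not normalized further. Probes were kept where all arrays of 1 or more of the 10 groups reached their own 30th percentile. Symbols came from the platform annotation.

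All 26 arrays were fitted with 10 group means in limma 3.58.1 (R 4.3.3), with 16 residual degrees of freedom, and adjusted by Benjamini-Hochberg over all probes tested. The fit was tested on simulated data. Permutation tests used scipy 1.17.1, and were adjusted over the 30 tests. For arrays, the number of pools limits the precision. Per the labels, the letters A, B and C name separate pools of animals. Whether they pair the sexes was checked: the deviations of same-letter male and female pools from their group means correlated by 0.441 to 0.816 in the 9 pairs of the glands with 3 pools. Meibomian pools B and C, which share an array set, also correlated across letters (0.456 and 0.491), so pairing by letter is not shown there. Submandibular pools A and B share a set too, but gave -0.439 and -0.451 across letters. In sublingual, parotid and lacrimal glands each letter had an array set of its own, so letter and set cannot be told apart there. Fits with the letter as a block are given where they changed a call.

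Of the lists, the 7 relatives tested were named in full, and of other lists at most 4 called genes by smallest p in a comparison, with any gene needed to state a small count. Of the 9 relatives listed 8 were on the array, and the transgelin relatives Tagln2 and Tagln3 were not among those tested. Myh11, Des, Trp63 and Krt17 were also named, chosen after their values were seen. The 5 most alike genes were those with the highest r. The members, lists and rules were chosen with earlier results of these data known. Alternatives covered normalization, floor, missing code, filter, left-out arrays, block, arrays fitted, array weights, prior, dim groups and array set.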

Additional observations from a re-analysis of the deposited data

Results flagged for a closer look

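The sex difference of Tagln was larger in the submandibular gland than over the mean of the other 4 glands, by 1.50 on the log2 scale, by a test of that difference in limma. The same test gave 2.13 for Actg2, a fitted value that rests on dim female submandibular pools (0.79, not called, with dim groups raised to the 30th percentile). The F test of whether the sex difference of Tagln differed among the 5 glands gave an adjusted p of 0.0412 in limma. Groups of 2 or 3 pools were too small to be searched for a pool far from the others.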

How the results depend on the processing

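Log2 differences are given unless a p is named. The submandibular sex difference of Tagln kept direction and call under every alternative run, with 1 array left out too (1.62 to 1.91), and that of Actg2 (2.01 to 2.5) under every one but the raised dim groups. That of Cnn1 was 1.61 with the missing code at the floor (adjusted p = 0.919), with no filter on dim probes (0.0762) and on the arrays compared alone (0.111), none of which passed, and 1.32 to 1.92 with 1 array left out. A floor at the 5th percentile, and a trended robust prior, changed no call of a member in the comparisons they were run on (the prior does not apply to the permutation tests). With no filter the mean sex difference of Tagln (0.55) and its F test (adjusted p = 0.0720) no longer passed, and the mean difference did not under quantile normalization either (0.54). Array weights moved Cnn1 in the lacrimal gland to -0.997, under the size limit, and the F test of Actg2 past the threshold (adjusted p = 0.0157). Under quantile normalization the F test of Cnn1 passed (adjusted p = 0.0461), as did its lacrimal sex difference against the other glands (-1.45), and the unequal changes of Actg2 over Cnn1 (-4.47) and Tagln over Cnn1 (-2.23) between sublingual and meibomian glands and of Tagln over Actg2 between submandibular and lacrimal glands (0.67) did not.

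Reading the 1 missing Cnn1 spot as the floor widened that probe's spread and lowered its sublingual mean. Cnn1 then turned to -0.68 for the sublingual gland against the others, -0.18 against the lacrimal and -0.61 against the meibomian gland. No longer called were its values for the submandibular (2.07), parotid (-1.02) and lacrimal (-0.45) glands against the others, sublingual minus parotid (0.28), and submandibular minus lacrimal (2.02), meibomian (1.59) and parotid (2.48).

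With the letters paired as a replicate block, sex contrasts of Cnn1 passed for the mean of the glands (0.59), the submandibular gland (1.27) and the lacrimal gland (-1.53) against the others, and the F tests passed for Actg2 (adjusted p = 0.0375) and Cnn1 (0.00630). Actg2 between submandibular and sublingual glands no longer passed (-1.33). The block changed no other call of a member in the comparisons fitted with limma. With the 2 pools of a letter averaged, a further form of the block chosen after seeing the data, none of the 15 unequal changes called could pass (adjusted p = 0.375 each). These were Actg2 over Cnn1 for lacrimal (-3.21), parotid (-3.62), sublingual (-4.25) and submandibular (-5.10) minus meibomian and for submandibular minus lacrimal (-1.88) and parotid (-1.48). They were Tagln over Actg2 for lacrimal (2.12), parotid (2.97), sublingual (2.20) and submandibular (3.33) minus meibomian and for submandibular minus lacrimal (1.21) and sublingual (1.13). They were also Tagln over Cnn1 for sublingual (-2.08) and submandibular (-1.77) minus meibomian and submandibular minus parotid (-1.12). It raised the probes called for sex to 597 in submandibular (214 without it), 1108 in lacrimal (445), 36 in sublingual (17), 331 in the mean (105), 577 in the F test (218) and 323 for the submandibular excess (114), and gave 1 in parotid (2). Over all alternatives, left-out arrays included, these counts ran from 141 to 597 in submandibular, 96 to 1108 in lacrimal, 0 to 36 in sublingual, 82 to 331 in the mean, 184 to 577 in the F test, 55 to 323 for the submandibular excess, 0 to 13 in parotid and 2 to 5 in meibomian (3). With no filter, 2998 probes (1652 with it) were called for the lacrimal gland against the others and 5062 (3344) for lacrimal minus meibomian.

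With dim groups raised to the 30th percentile, chosen after seeing the data, Actg2 was no longer called for sex in the submandibular gland (1.05), its excess there (0.79) and submandibular minus sublingual (-0.73). The F test of Actg2, which passed under some other alternatives, did not pass with dim groups raised. Among unequal changes, Tagln over Actg2 lost the call for submandibular minus lacrimal (0.61) and sublingual (0.53) and gained it for submandibular minus parotid (0.87). Actg2 over Cnn1 (-4.37) and Tagln over Cnn1 (-2.19) for sublingual minus meibomian lost it with no change in value, through the adjustment over the 30 tests (adjusted p = 0.0510).

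With array set as a term, chosen after seeing the data, the F tests of Actg2 (adjusted p = 0.0427) and Cnn1 (0.0228) passed, as did Cnn1 for sex in the submandibular (1.34) and lacrimal gland (-1.46) against the others. Tagln in the sublingual gland (1.06), Actg2 for submandibular minus parotid (1.07), and Cnn1 for parotid (-2.26) and lacrimal minus meibomian (-1.48) were then called. Tagln in the parotid gland (-0.87) and for parotid minus meibomian (-0.85), and Cnn1 for submandibular (0.31) and sublingual minus meibomian (0.62), were not. The causes of these changes were not tested.

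With 1 array left out, these also crossed a limit. Against the other glands, the lacrimal values ran from -1.37 to -0.90 for Actg2, -1.25 to -0.95 for Cnn1 and -1.24 to -0.94 for Tagln, and the submandibular value of Actg2 from -1.05 to -0.81. For pairs, Actg2 ran from -1.10 to -0.59 for parotid minus lacrimal and 0.75 to 1.24 for submandibular minus parotid, and Cnn1 from -1.12 to -0.66 for parotid minus meibomian. The submandibular excess of the sex difference ran from 1.89 to 2.38 for Actg2 and 1.37 to 1.66 for Tagln, and the mean sex difference of Tagln from 0.49 to 0.62. The submandibular Actg2 value was called without male pool A or female pool B, and the F test of Actg2 passed without female lacrimal pool B or C. Of the pairs, the first was called without male lacrimal pool A, female lacrimal pool B, or male or female parotid pool B, and the third without male or female parotid pool B or female meibomian pool B. The second was called without male submandibular pool B or C, female submandibular pool A or C, or male or female parotid pool B. Adjusted p of the F test ran from 0.0249 to 0.277 for Actg2 and 0.0117 to 0.156 for Tagln. Among unequal changes, Tagln over Actg2 ran from 2.14 to 2.26 for sublingual minus meibomian, 0.88 to 1.41 for submandibular minus lacrimal and 0.93 to 1.22 for submandibular minus sublingual. Tagln over Cnn1 ran from -1.46 to -0.81 for lacrimal, -0.94 to -0.49 for parotid and -2.42 to -1.97 for sublingual minus meibomian, and Actg2 over Cnn1 from -4.60 to -4.06 for sublingual minus meibomian. Dim readings limit Actg2 outside the meibomian, sublingual and male submandibular glands.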
